A study of Mus musculus with 2 samples.

Results

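The genes described here handle retinoids, the vitamin A compounds that cells take up, turn into the signalling molecule retinoic acid and break down again. They are 10 genes, all found once in the 31253 genes listed for each of the 2 single-cell libraries of mouse periosteum: the carrier and uptake genes Rbp4 and Stra6, the binding protein genes Crabp1 and Crabp2, the oxidation genes Aldh1a1, Aldh1a2, Aldh1a3 and Cyp1b1, and the breakdown genes Cyp26a1 and Cyp26b1. The list was chosen by the levels of these genes by cell type in the same libraries, which were already known, so where a gene stood high is a description and was not tested.

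In this pathway, retinol travels in blood bound to the carrier RBP4 and enters some cells through the membrane receptor STRA6. Retinol and aldehyde dehydrogenases oxidize it to retinoic acid, CRABP proteins hold retinoic acid in the cytoplasm, and nuclear receptors of the RAR and RXR families bind it and switch on target genes. Enzymes of the CYP26 family then oxidize retinoic acid to inactive forms, so that a cell with much CYP26 lowers the signal around it, as in the growing limb, where Cyp26b1 keeps the distal part free of retinoic acid.

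One library was labelled Prx1 Cre; Ai9/+ and is called control. The other carried Piezo1 fl/fl in addition to the same Cre and reporter alleles and is called Piezo1 fl/fl. Mice were 8 weeks old, and cells were released by digestion from the periosteum of femurs and tibias, freed of red blood cells, sorted for the Prx1 reporter and captured on the BD Rhapsody system. Prx1 Cre is active in limb mesenchyme during development, so that lineage is the target of the floxed allele, and yet endothelial-like and macrophage-like cells were found in both libraries. The labels do not give the number of animals behind a library. There was 1 library per genotype, so genotype and library cannot be told apart and no comparison was tested. The intervals given are at 95% and hold counting error alone.

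The libraries held 6118 and 7469 cell barcodes, 28030299 and 32337308 UMIs (unique molecular identifiers, each marking 1 captured mRNA molecule), and medians of 3633.5 and 3327 UMIs per barcode. After filters 4418 control and 5084 Piezo1 fl/fl cells were kept, of which 393 and 608 took no cell type, and 26 kept barcodes were the same in both. Piezo1 itself stood at 5.10 CPM (UMIs per 1000000) in control and 2.19 in Piezo1 fl/fl non-blood cells, from 121 and 57 UMIs, and at 30.9 and 21.2 in endothelial-like cells. The tags of this method lie near the 3′ end of a transcript and the floxed exons are not given in the labels, so these values do not check the deletion.

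Cells were typed by panels of marker genes that held none of the retinoid genes, and 11 types had at least 50 cells in both libraries. SSPC stands for skeletal stem and progenitor cell. The types were SSPC-1-like cells (617 control and 666 Piezo1 fl/fl; markers such as Col8a1 and Egfl6), tendon-like (260 and 497), SSPC-2-like (659 and 332; Tnn and Postn), preosteoblast-like (92 and 65), Pi16 (779 and 1037), Gdf10 (497 and 472) and other (131 and 244) fibroblast-like, lining-like (59 and 127; Prg4), mural-like (298 and 376), endothelial-like (167 and 124) and C1q macrophage-like (376 and 398) cells. A type is a range of a marker score and not a sharp class: 122 of the 617 control and 159 of the 666 Piezo1 fl/fl SSPC-1-like cells lay near the limit to another type. The panels themselves were not equal in the libraries. In SSPC-1-like cells the SSPC-1 panel summed to 8835 CPM in control and 6181 in Piezo1 fl/fl, and the tendon panel to 2397 and 4409. In lining-like cells the lining panel summed to 140570 and 49882. Genes of the response to tissue digestion were at 13890 and 15660 over non-blood cells. The part of these shifts in the differences below was not tested.

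A level is in CPM: the UMIs of a gene summed over the cells of a type, per 1000000 UMIs of that type. The type with the highest level differed from gene to gene.

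**Figure D1:**
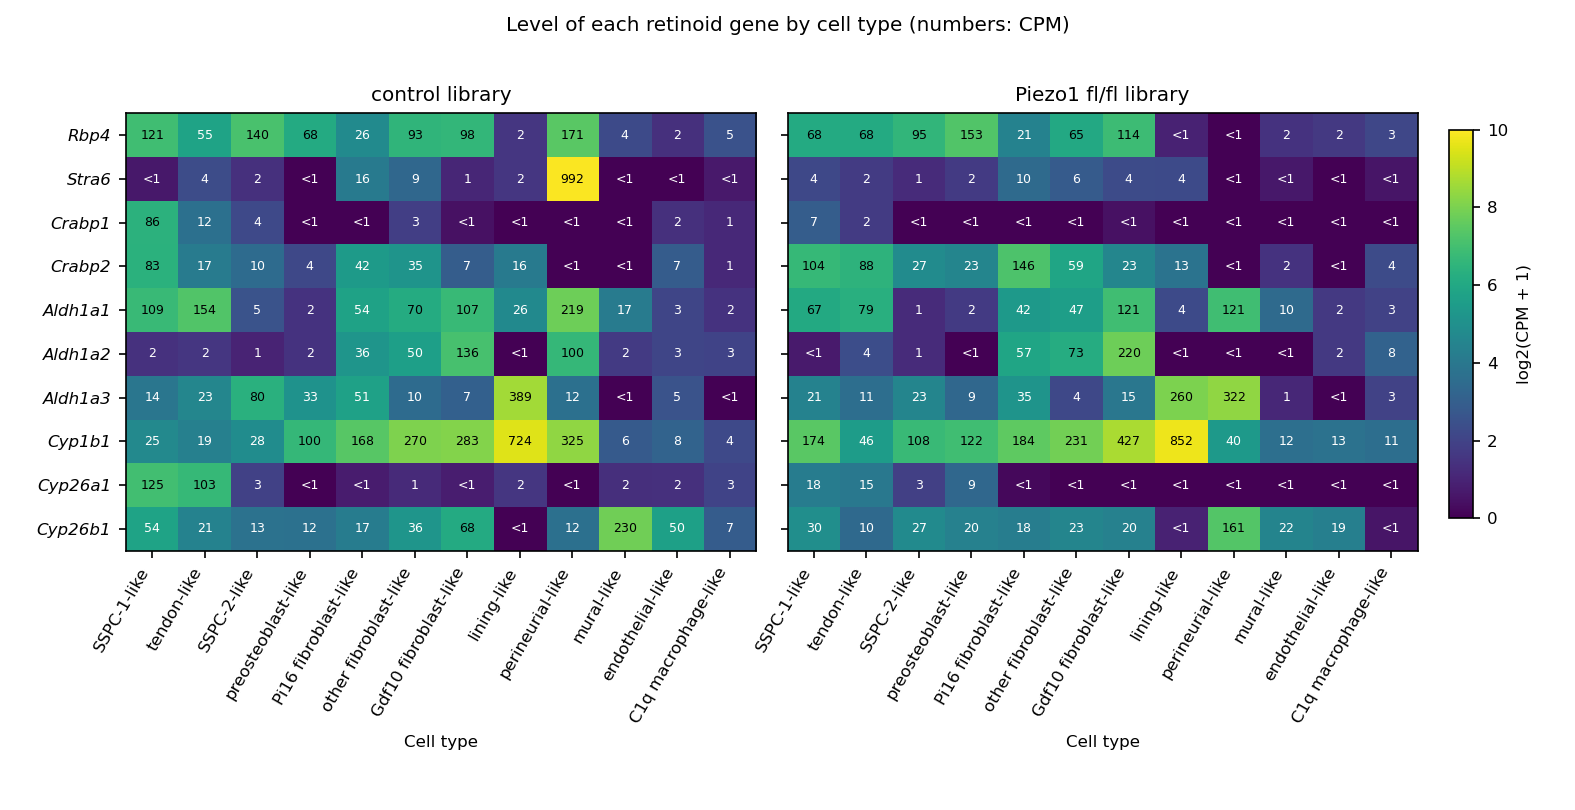
Level of each of the 10 genes (rows) in 12 cell types (columns) in the control and the Piezo1 fl/fl library; the number in a cell is CPM and its colour the same value as log2(CPM + 1). In control the highest boxes are Stra6 in perineurial-like cells (992) and Cyp1b1 in lining-like cells (724), and the perineurial-like column of Piezo1 fl/fl rests on 3 cells.

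The genes lie on 6 chromosomes in GRCm38. On chromosome 19 are Cyp26a1 (37697798 to 37701536, plus strand), Rbp4 (38116629 to 38125281, minus) and Aldh1a1 (20492715 to 20643465, plus), and on chromosome 9 Crabp1 (54764748 to 54773110, plus), Stra6 (58063788 to 58153996, plus) and Aldh1a2 (71215789 to 71296243, plus). Crabp2 lies on chromosome 3 (87948666 to 87953376, plus), Cyp26b1 on 6 (84571414 to 84593908, minus), Aldh1a3 on 7 (66390890 to 66427517, minus) and Cyp1b1 on 17 (79701537 to 79715061, minus).

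Both uptake genes were most abundant outside the endothelium. Rbp4, the gene of the blood carrier of retinol, was present at 140 (130 to 151) CPM in control SSPC-2-like cells, with 309 of 659 cells holding a UMI, and at 121 in SSPC-1-like, 98.1 in Gdf10 fibroblast-like and 68.4 in preosteoblast-like cells. In endothelial-like cells, which had medians of 3010 and 2972 UMIs per cell, Rbp4 was 1.63 and 2.12, from 1 UMI in each library. In Piezo1 fl/fl, Rbp4 stood at 94.7 in SSPC-2-like cells (log2 ratio to control -0.57, interval -0.80 to -0.34) and at 68.2 in SSPC-1-like cells (-0.83, -1.07 to -0.59). It was higher in preosteoblast-like cells, at 153 against 68.4 (1.17, 0.58 to 1.77), where 5 of 65 cells held 63.2% of the UMIs; without the 5 cells with the most UMIs in each library the levels were 69.7 and 47.7 and the log2 ratio 0.55 (-0.31 to 1.41).

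Stra6, the receptor that takes retinol from RBP4, was concentrated in a small group. The 32 perineurial-like cells of the control library, cells of the nerve sheath marked by Slc2a1 and Cldn1, held 168 of its UMIs, 50.8% of those in all kept cells. Their level of 992 (848 to 1154) was 60.5-fold (45.7 to 80.9) that of the next type, Pi16 fibroblast-like cells, and at 2500 UMIs per cell 71.0% (52.0 to 85.8) of 31 cells had a UMI. The same 32 cells held Rbp4 at 171 CPM, Aldh1a1 at 219, Aldh1a2 at 100.4 and the retinol dehydrogenase gene Rdh10 at 136. Only 3 Piezo1 fl/fl cells were perineurial-like, 2 of them near the limit to another type, so this type was not compared between the libraries.

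Over all non-blood cells Stra6 was 13.9 in control and 5.58 in Piezo1 fl/fl, a log2 ratio of -1.32 (-1.61 to -1.03). Without the perineurial-like cells it was 6.88 and 5.58, a log2 ratio of -0.30 (-0.64 to 0.03). In Pi16 fibroblast-like cells Stra6 was at 16.4 and 10.1 (-0.70, -1.20 to -0.20), and with types taken from clusters the log2 ratio was 0.62.

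The binding protein genes differed between the libraries in opposite directions. Crabp1, of the cytoplasmic binding protein found mainly in embryonic and neural crest tissue, was highest in SSPC-1-like cells in control, with 86.1 (76.8 to 96.2) CPM there, 12 in tendon-like cells, 3.64 in SSPC-2-like cells and no UMI in Pi16 fibroblast-like, mural-like or lining-like cells. The SSPC-1-like level of Piezo1 fl/fl was 6.73 (4.16 to 10.3), 12.8-fold lower, a log2 ratio of -3.68 (-4.39 to -3.04). UMIs were found in 64 of 617 and 13 of 666 cells, and at equal depth in 6.53% (4.64 to 8.88) and 1.41% (0.609 to 2.75) of cells, against 0.340% and 0% of C1q macrophage-like cells. Control cells that took no type held 109 Crabp1 UMIs, 23.49% of the gene's UMIs, with 9.07% of all UMIs, and were not ranked with the types.

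Few cells carried most of the Crabp1 signal. In control, 5 SSPC-1-like cells held 59.0% of the UMIs, led by cells with 79 and 50 UMIs, while the highest Piezo1 fl/fl cell had 5. Without the 5 richest cells in each library the levels were 35.8 and 2.59 and the log2 ratio -3.79 (-5.03 to -2.77). This took 5 of 64 cells with a UMI in control and 5 of 13 in Piezo1 fl/fl. With such unequal shares the ratio cannot show whether the difference rested on few cells. Cyp26a1 had no common relation to Crabp1 in the libraries. Control SSPC-1-like cells with a Crabp1 UMI held Cyp26a1 at 38.6 (22.9 to 61.0) CPM and the others at 138 (125 to 151), but at equal depth a Cyp26a1 UMI was found in 13.5% (4.54 to 28.8) of 37 and 13.4% (10.6 to 16.6) of 530 cells. In Piezo1 fl/fl the 13 cells with Crabp1 held Cyp26a1 at 101.9 (46.6 to 193.5), from 9 UMIs in 2 cells, and the others at 15.2 (11.1 to 20.2).

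Crabp2, whose product carries retinoic acid to the nuclear receptors, was higher in Piezo1 fl/fl in several types. In Pi16 fibroblast-like cells it stood at 42.3 (36.5 to 48.9) in control and 146 (137 to 155) in Piezo1 fl/fl, 3.44-fold higher (log2 ratio 1.78, 1.56 to 2.02). In tendon-like cells it was 16.7 and 87.7 (2.40, 1.80 to 3.05). The share of Pi16 fibroblast-like cells with a UMI at equal depth was 5.49% (3.93 to 7.43) in control and 15.2% (13.0 to 17.6) in Piezo1 fl/fl, and without the 5 richest cells in each library the log2 ratio was 2.22 (1.95 to 2.51).

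In SSPC-2-like cells Crabp2 was 10.3 and 27.2 (1.4, 0.84 to 1.97), and in Gdf10 fibroblast-like cells 6.64 and 23.0 (1.79, 1.02 to 2.63). These last values depended on few cells: without the 5 richest cells the log2 ratios were 0.47 (-0.36 to 1.28) and 0.89 (-0.18 to 2.03), and with types taken from clusters the Gdf10 fibroblast-like value was -2.20. SSPC-1-like cells, the highest type of control, were at 82.8 and 104 (0.33, 0.09 to 0.56), but 1 Piezo1 fl/fl cell alone held 107 of the 324 UMIs, and without the 5 richest cells the levels were 73.3 and 61.7 (-0.25, -0.53 to 0.02). Crabp2 thus had its highest level in SSPC-1-like cells in control and in Pi16 fibroblast-like cells in Piezo1 fl/fl.

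Among Pi16 fibroblast-like cells, those with a Crabp2 UMI stood apart from the rest in both libraries, a split made after the values were seen, and were deeper (medians of 7569 and 4787 UMIs in control, 7517 and 5140 in Piezo1 fl/fl). They held Pi16 at 250 CPM in control, against 911 in the cells without Crabp2, and at 171 against 829 in Piezo1 fl/fl. Clec3b, which marks the whole fibroblast class, was at 1592 against 1882 and at 1849 against 1884. The retinoic acid synthesis gene Aldh1a2 was at 2.18 (1 UMI) against 39.9 in control and at 5.68 against 78.1 in Piezo1 fl/fl, and Cyp1b1 at 54.4 against 182 and at 65.05 against 232. At equal depth a Cyp1b1 UMI was found in 5.13% (0.627 to 17.3) of control cells with Crabp2 and 25.9% (22.6 to 29.4) of those without, and in 11.6% (6.93 to 17.99) and 32.1% (28.9 to 35.4) in Piezo1 fl/fl. For Aldh1a2 these shares were 2.56% (0.065 to 13.5) and 5.96% (4.29 to 8.03) in control, with intervals that overlapped. In Piezo1 fl/fl the Aldh1a2 shares were 0.685% (0.017 to 3.76) and 8.46% (6.64 to 10.6). Cells with Crabp2 made up 7.19% of this type in control and 20.8% in Piezo1 fl/fl, and the Pi16 panel summed to 3212 and 2367 CPM in the type as a whole.

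**Figure D2:**
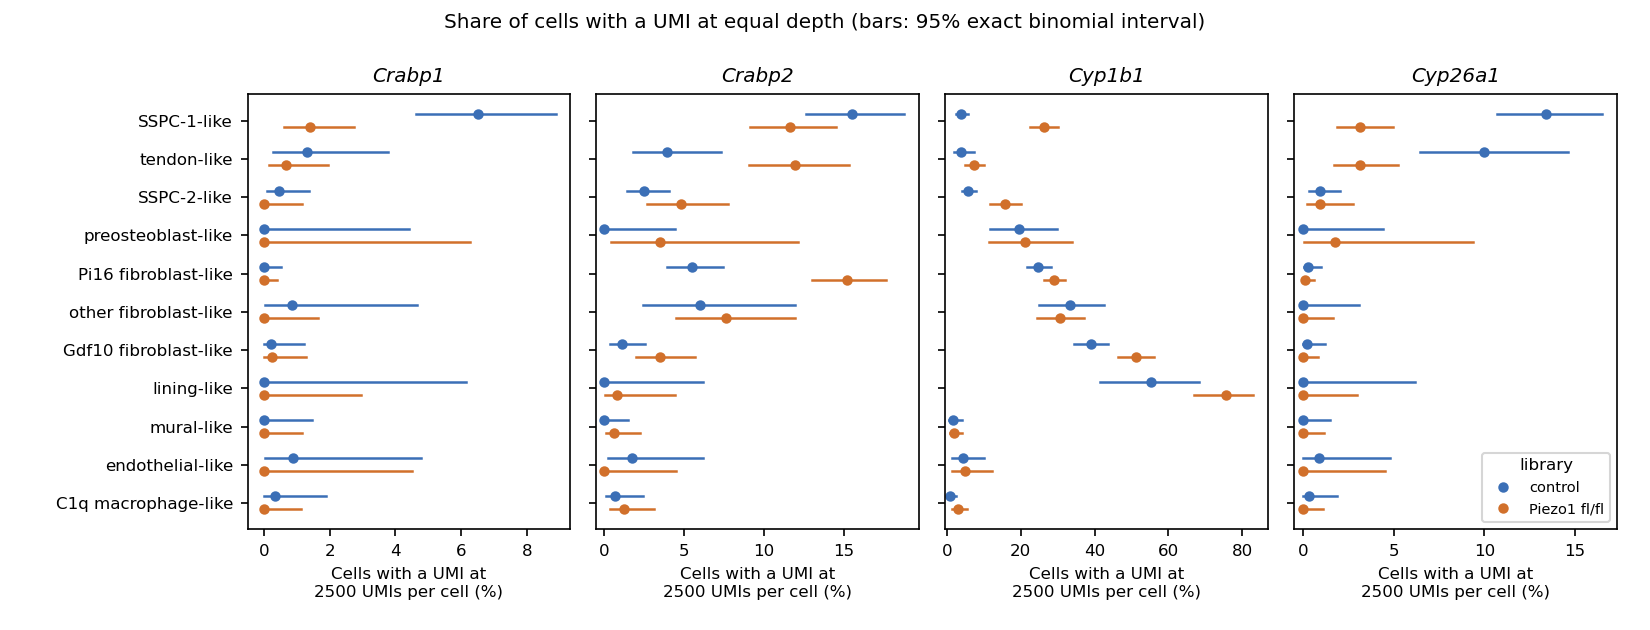
Share of cells of each type (rows) with at least 1 UMI of Crabp1, Crabp2, Cyp1b1 or Cyp26a1 after every cell was thinned to 2500 UMIs, in the control (blue) and Piezo1 fl/fl (orange) library; points are shares in percent and bars exact binomial 95% intervals. In SSPC-1-like cells the control share is above that of Piezo1 fl/fl for Cyp26a1 (13.4% against 3.16%) and below it for Cyp1b1 (3.88% against 26.2%).

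The 3 retinal dehydrogenase genes, whose enzymes make retinoic acid from retinal, were divided between types. Aldh1a2, the main source of retinoic acid in the embryo, was highest in fibroblasts among the compared types. It was at 136 (123 to 151) CPM in control Gdf10, 49.5 in other and 35.97 in Pi16 fibroblast-like cells. The rest of these types held at most 3.25. Perineurial-like cells of control, not among these types, held Aldh1a2 at 100.4 from 17 UMIs. That level did not differ from Gdf10 fibroblast-like cells beyond counting error. Aldh1a3 was highest in lining-like cells, at 389 (336 to 447), which was 4.88-fold (4.10 to 5.81) the next type. Aldh1a1 was spread over several types, with 154 (135 to 175) in tendon-like, 109 in SSPC-1-like and 107 in Gdf10 fibroblast-like cells, the last pair not differing beyond counting error.

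Aldh1a1 sits beside its near copy Aldh1a7 on chromosome 19 and reads of the pair could be shared, though Aldh1a7 itself had only 7 and 21 UMIs in non-blood cells. In Piezo1 fl/fl, Aldh1a1 was at 78.9 in tendon-like cells (log2 ratio -0.96, -1.24 to -0.69) and at 66.6 in SSPC-1-like cells (-0.71, -0.96 to -0.47). In Gdf10 fibroblast-like cells it was at 121 and did not differ from control beyond counting error (0.19, -0.04 to 0.42). Aldh1a2 kept its order of types and was higher in the fibroblasts of Piezo1 fl/fl, at 220 in Gdf10 (0.69, 0.50 to 0.88), 57.3 in Pi16 (0.67, 0.40 to 0.95) and 72.6 in other fibroblast-like cells (0.55, 0.00 to 1.13). Without the 5 richest cells in each library, other fibroblast-like cells were at 14.8 and 48.9 (1.72, 0.79 to 2.79), from 11 and 68 UMIs, and with types taken from clusters the Pi16 value turned to -0.96. At equal depth the share of Gdf10 fibroblast-like cells with an Aldh1a2 UMI was 18.2% (14.8 to 22.1) and 19.9% (16.2 to 24.0), and the cells with a UMI, 106 and 126, held 370 and 621 UMIs.

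Aldh1a3 was lower in the bone-side types of Piezo1 fl/fl, though not in these alone. It also went from 51.5 to 35.1 in Pi16 fibroblast-like cells and had a log2 ratio of -1.07 in tendon-like cells. SSPC-1-like (14.1 and 20.8) and Gdf10 fibroblast-like cells (7.37 and 14.5) went the other way. SSPC-2-like cells held 79.6 (71.9 to 87.8) in control and 22.7 (16.8 to 29.9) in Piezo1 fl/fl, 3.51-fold lower (log2 ratio -1.81, -2.27 to -1.39), with UMIs in 17.3% (14.5 to 20.5) and 5.41% (3.19 to 8.53) of cells at equal depth. Preosteoblast-like cells went the same way, at 33.3 and 9.02 from 19 and 4 UMIs. SSPC-2-like cells of Piezo1 fl/fl also held more of the preosteoblast panel, 6548 against 3008 CPM, and the part of this in the difference was not tested. In lining-like cells the levels were 389 and 260 (-0.58, -0.85 to -0.31), and this type stayed the highest in both libraries.

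Synthesis genes shared cells at equal depth to an extent that was not the same in the libraries, a difference that was not tested. In Pi16 fibroblast-like cells of Piezo1 fl/fl, Cyp1b1 was found in 42 of the 70 cells with Aldh1a2 and in 26.6% (23.7 to 29.6) of the others. The control shares were 26.8% (14.2 to 42.9) and 24.7% (21.4 to 28.1), which overlapped. In Gdf10 fibroblast-like cells Cyp1b1 was found in 65.1% (54.1 to 75.1) of the Piezo1 fl/fl cells with Aldh1a2 against 47.7% (42.3 to 53.1) of the others. In control the shares were 28.9% (19.5 to 39.9) and 41.1% (36.1 to 46.3), lower with Aldh1a2 but with intervals that overlapped.

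Lining-like cells showed the same contrast for Aldh1a3 and Cyp1b1. Of the Piezo1 fl/fl cells with Aldh1a3, 91.3% (79.2 to 97.6) held Cyp1b1, against 66.2% (54.5 to 76.6) of the others, while the control shares were 54.5% (36.4 to 71.9) of 33 cells and 56% (34.9 to 75.6) of 25. Aldh1a1 and Aldh1a3 went together in control Pi16 fibroblast-like cells, where 21.9% (14.1 to 31.5) of the cells with Aldh1a1 and 7.49% (5.54 to 9.87) of the others held Aldh1a3; in Piezo1 fl/fl these shares were 9.74% (4.96 to 16.8) and 6.36% (4.81 to 8.22). These pairs were picked after the values were seen.

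Cyp1b1 encodes a cytochrome P450 of wide substrate range that can oxidize retinol to retinal and retinoic acid. It was the most abundant of the 10 genes in both libraries, with 113 and 204 CPM over non-blood cells. Lining-like cells were highest, at 724 (652 to 802) and 852 (797 to 908), followed among the 11 types by Gdf10 fibroblast-like cells at 283 (263 to 304) and 427 (404 to 452). Endothelial-like cells held 8.13 and 12.7.

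Cyp1b1 differed between the libraries in SSPC-1-like cells, from 25.4 (20.5 to 31.1) in control to 174 (160 to 189) in Piezo1 fl/fl, 6.86-fold higher (log2 ratio 2.78, 2.46 to 3.11). A UMI was found in 44 of 617 control and 233 of 666 Piezo1 fl/fl cells although the latter were shallower (medians of 5273 and 3929 UMIs), and at equal depth in 3.88% (2.45 to 5.82) and 26.2% of cells. The Piezo1 fl/fl cells with a Cyp1b1 UMI held Col8a1 at 2921 (2822 to 3022) and those without at 3065 (2988 to 3143), and Tnmd at 454 and 393. The fibroblast marker Clec3b was at 88.5 (72.0 to 107.6) and 70.8 (59.6 to 83.5) in the same cells. In control SSPC-1-like cells Clec3b was at 115 (80.8 to 159.7) with a Cyp1b1 UMI and at 28.7 (23.2 to 35.1) without. The part of fibroblast signal in the Cyp1b1 difference was not tested. SSPC-2-like cells were at 27.9 and 108 (1.96, 1.65 to 2.27) and tendon-like cells at 19.3 and 45.6 (1.24, 0.64 to 1.88). The tendon-like value was not stable: it was 2.69 (1.65 to 3.95) without the 5 richest cells, 4.41 with types taken from clusters, and 0.87, under 2-fold, both at equal depth and with a wider gap between marker scores. In Pi16 fibroblast-like cells, 168 and 184, the log2 ratio was 0.13 (-0.01 to 0.26).

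The breakdown genes were lower in Piezo1 fl/fl in the types where control was highest. Cyp26a1, the retinoic acid hydroxylase that retinoic acid itself induces in many cells, was high in only 2 of the compared types. Control SSPC-1-like cells had 125 (114 to 137) CPM and tendon-like cells 103 (87.1 to 120), and the next type, C1q macrophage-like cells, 2.99. The Piezo1 fl/fl cells of these types held 17.6 (13.3 to 22.9) and 14.9 (10.6 to 20.4), log2 ratios of -2.83 (-3.26 to -2.42) and -2.78 (-3.33 to -2.27). At equal depth 13.4% (10.7 to 16.5) of control and 3.16% (1.89 to 4.95) of Piezo1 fl/fl SSPC-1-like cells had a UMI. Cells that took no type were not ranked, and held 100 and 22 Cyp26a1 UMIs in the libraries. These were 13.59% and 17.32% of the gene's UMIs, from cells with 9.07% and 11.03% of all UMIs.

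Without the 5 richest cells the Cyp26a1 log2 ratio in SSPC-1-like cells was -3.18 (-3.73 to -2.67) and in tendon-like cells -2.81 (-3.60 to -2.09). Control SSPC-1-like cells with a Cyp26a1 UMI held the type marker Col8a1 at 8536 and those without at 5122, and the SSPC-1 panel was lower in Piezo1 fl/fl, as given above. In tendon-like cells the tendon panel summed to 23739 and 20730. The part of these panel values in the Cyp26a1 difference was not tested. Its relative Cyp26c1, 4400 bases away, had no UMI in either library.

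The promoter of Cyp26a1 is shown because it was the only one among the members to hold a sequence of the kind that retinoic acid receptors bind. The 250 bases before the transcript start in RefSeq (GRCm38.p6, chr19:37697558-37697807, plus strand) are printed 5′ to 3′ with the repeated 6 bases in capitals.
Cyp26a1 promoter: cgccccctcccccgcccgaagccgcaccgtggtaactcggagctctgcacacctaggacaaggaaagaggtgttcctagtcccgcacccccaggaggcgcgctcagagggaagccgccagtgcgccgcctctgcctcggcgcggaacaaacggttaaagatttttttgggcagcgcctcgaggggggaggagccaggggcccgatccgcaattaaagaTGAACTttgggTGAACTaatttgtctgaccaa
The element is a direct repeat with 5 bases between its copies (DR5), read on the minus strand as AGTTCA and lying at bases -32 to -16 from the start. Both strands were searched for pairs of AGGTCA, in which the first base could also be G and the third also T, lying 1, 2 or 5 bases apart (DR1, DR2 and DR5). A DR5 was found in 0.0883% of the 32851 promoters of this length, a DR2 in 0.174% and a DR1 in 0.164%. Of the 10 genes, 8 had a RefSeq promoter, 13 promoters in all; Crabp2 and Aldh1a3 were not searched. A match is a run of letters and not a measured binding site.

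Cyp26b1, the other retinoic acid hydroxylase, had its control maximum in mural-like cells, the smooth muscle cells and pericytes of vessels. They held 230 (204 to 257) CPM, 3.37-fold (2.80 to 4.07) the next type, Gdf10 fibroblast-like cells at 68.2, followed by SSPC-1-like cells at 54.4 and endothelial-like cells at 50.4, which did not differ from each other beyond counting error. The mural-like level of Piezo1 fl/fl was 22.1 (15.6 to 30.3), 10.4-fold lower (log2 ratio -3.38, -3.90 to -2.89). The mural panel was near equal in the libraries, at 30453 and 30075.

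The mural signal came from few cells, 26 of 298 in control and 10 of 376 in Piezo1 fl/fl. In control these 26 cells held Rgs5 at 27550 CPM and Abcc9 at 864, against 3572 and 41.9 in the other mural-like cells, and the contractile genes Myh11 and Acta2 at 1162 and 5296, against 5814 and 18550. Rgs5, Abcc9 and Kcnj8 mark pericytes, and Myh11 and Acta2 smooth muscle. Splitting all mural-like cells by an Abcc9 UMI, a choice made after the values were seen, gave 42 control and 37 Piezo1 fl/fl cells with it, in which Cyp26b1 was 1415 (1239 to 1609) and 162 (110 to 232), and Kcnj8 165 (109 to 240) and 152 (101 to 219). In the cells without Abcc9, Cyp26b1 was 60.8 (47.4 to 76.8) and 5.21 (2.25 to 10.3). These levels came from 70 UMIs in 8 of 256 control cells and 8 UMIs in 2 of 339 Piezo1 fl/fl cells. The intervals do not hold the spread between so few cells. Cyp26b1 was thus lower in Piezo1 fl/fl on both sides of the split, while Kcnj8 was not different beyond counting error; Rgs5 among the cells with Abcc9 was 18290 and 8588.

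**Figure D3:**
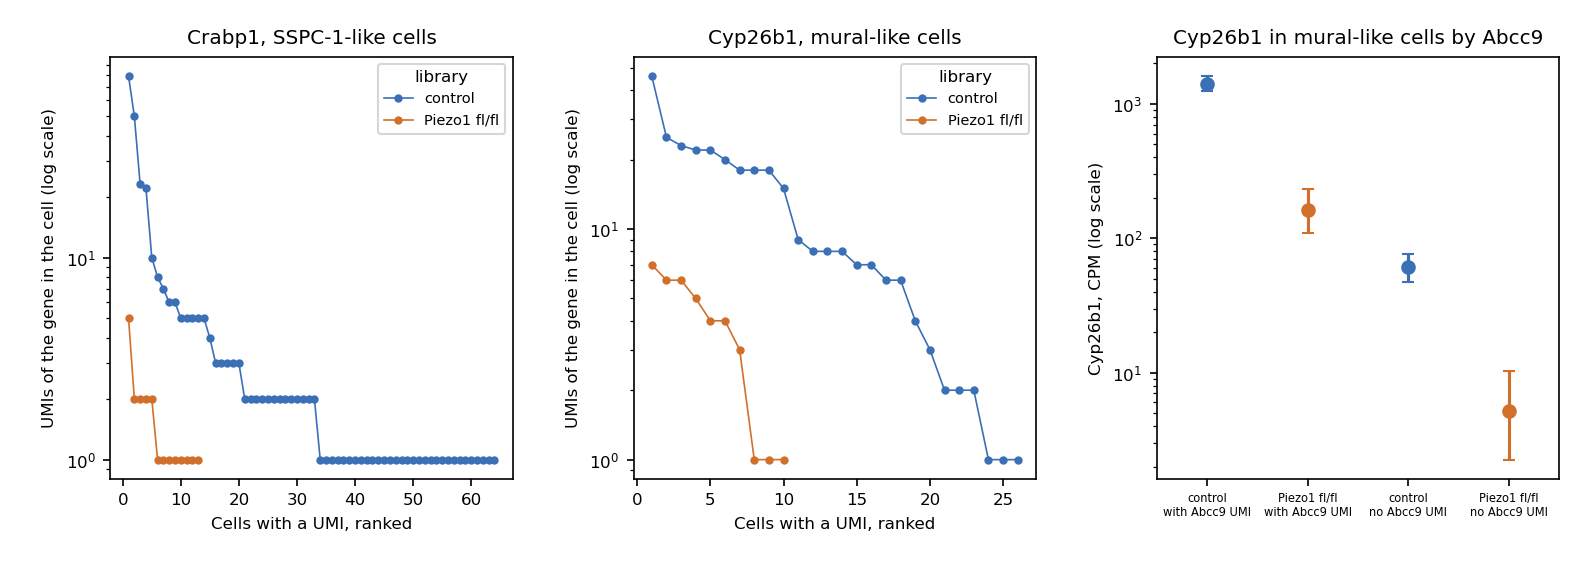
Left and middle, UMIs of Crabp1 in SSPC-1-like and of Cyp26b1 in mural-like cells, 1 point per cell with a UMI in order of UMIs, on a log axis, for the control (blue) and Piezo1 fl/fl (orange) library; right, Cyp26b1 in CPM (log axis) in mural-like cells with and without an Abcc9 UMI, with exact Poisson 95% intervals. Control has more positive cells (64 against 13, and 26 against 10) and richer ones. Cyp26b1 is lower in Piezo1 fl/fl with Abcc9 (1415 against 162) and without it (60.8 against 5.21, from 8 and 2 cells with a UMI).

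Cyp26b1 was also lower in Gdf10 fibroblast-like cells of Piezo1 fl/fl, at 68.2 and 20.2 (-1.76, -2.21 to -1.32), and in SSPC-1-like cells, at 54.4 and 29.8 (-0.87, -1.24 to -0.51). In endothelial-like cells it was 50.4 and 19.1 from 31 and 9 UMIs (-1.4, -2.66 to -0.30), and in tendon-like cells 20.7 and 9.57 (-1.11, -1.93 to -0.30). With types taken from clusters, the last pair of log2 ratios was 0.14 and 0.83. SSPC-2-like cells went the other way, at 12.7 and 26.7 (1.07, 0.53 to 1.61), and the log2 ratio was 0.80 with types taken from clusters. Pi16 fibroblast-like cells held 17.3 and 17.9. Cells that took no type held 102 Cyp26b1 UMIs in control and 159 in Piezo1 fl/fl, and were not ranked with the types. These were 9.65% and 25.94% of the gene's UMIs, from cells with 9.07% and 11.03% of all UMIs. In Piezo1 fl/fl no compared type held as many, the next being Pi16 fibroblast-like cells with 121.

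**Figure D4:**
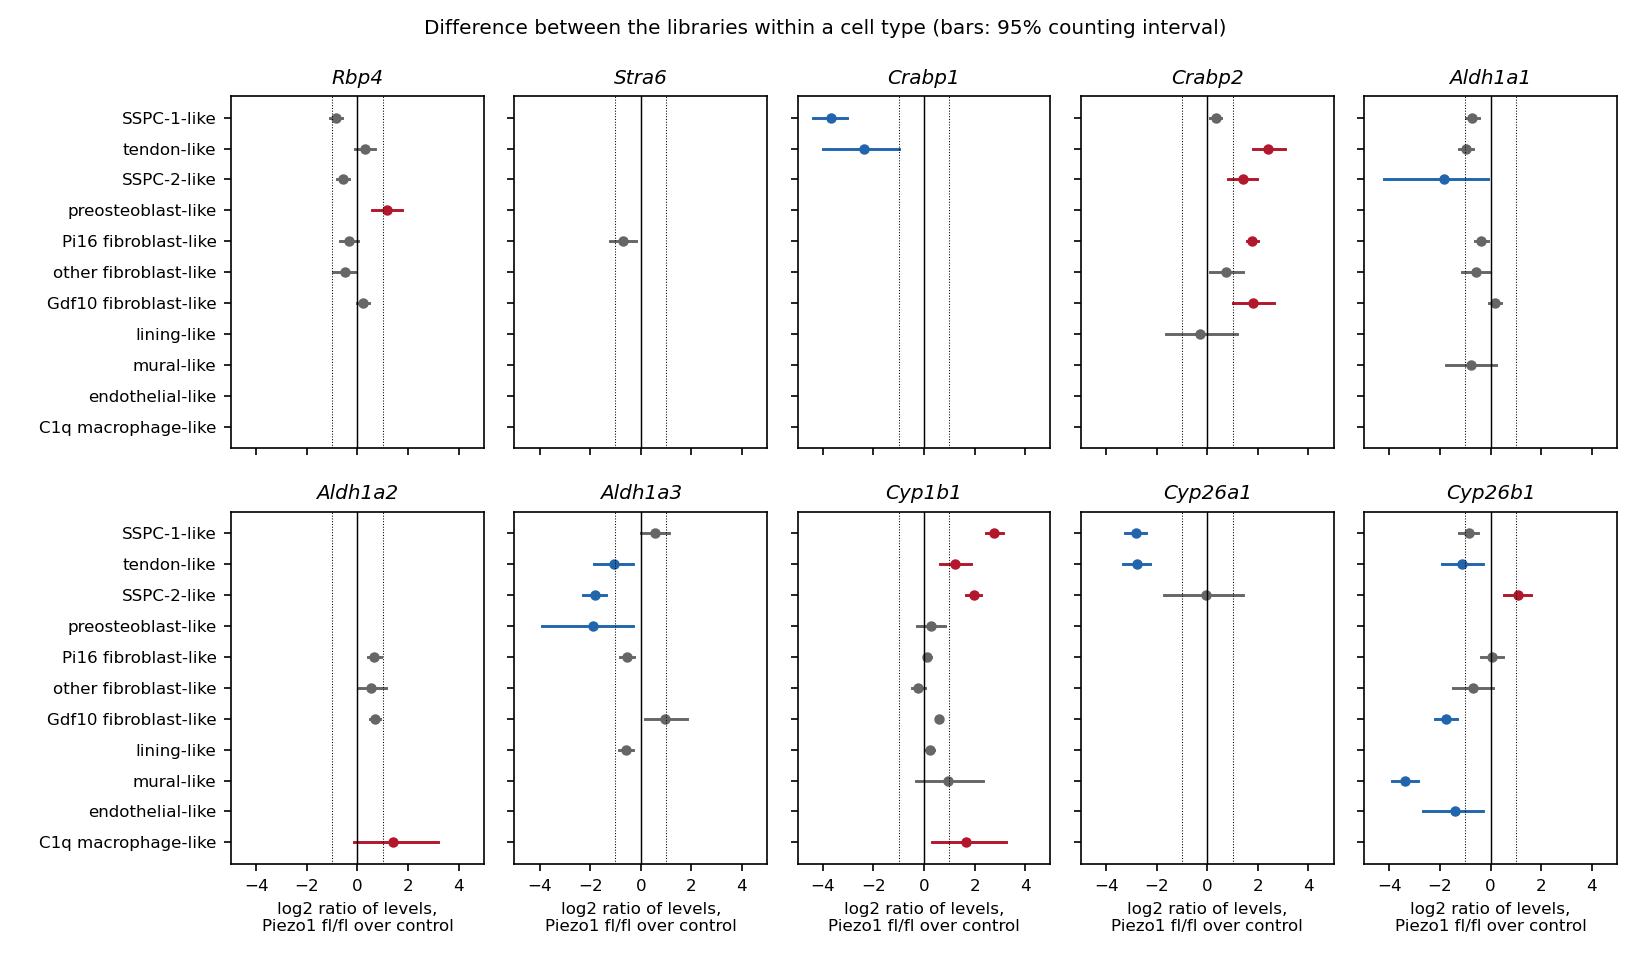
Log2 ratio of the level in Piezo1 fl/fl over control (horizontal axis) for each of the 10 genes (panels) in each cell type (rows) with at least 20 UMIs in the libraries together; points are ratios, bars 95% counting intervals, dotted lines a 2-fold difference, red at least 2-fold higher and blue at least 2-fold lower. Crabp2 and Cyp1b1 lie to the right in most types shown, and Crabp1 and Cyp26a1 to the left in SSPC-1-like and tendon-like cells (-3.68 and -2.83 in the former).

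Over all non-blood cells, 1 of the 10 genes was at least 2-fold higher in Piezo1 fl/fl (Crabp2, 30.8 and 79.7), where 2.04% of the 14103 genes compared were, and 3 were at least 2-fold lower (Stra6, Crabp1 at 19.5 and 1.23, and Cyp26a1 at 30.8 and 4.88), where 4.64% of genes were. The median log2 ratio of the 10 was -0.56, and -0.03 over all genes. The 3 lower genes include Stra6, which left this group without the perineurial-like cells. Fewer cells of a type and less mRNA per cell cannot be told apart in these sums over cells, so the comparisons within types are given beside them.

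By gene and type, 56 pairs had at least 20 UMIs, of which 11 were at least 2-fold higher in Piezo1 fl/fl and 12 at least 2-fold lower, against 3.22% and 3.62% of all gene and type pairs. In 5 of the higher and 6 of the lower pairs the whole interval lay past 2-fold. A pair entered through its UMIs in either library, and the genes were chosen with these differences known, so nothing is read from the excess.

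Tendon-like cells had 4 of 8 genes lower (Crabp1, Aldh1a3, Cyp26a1 and Cyp26b1; 4.22% of genes), with 2 higher (Crabp2 and Cyp1b1; 3.75%) and a median log2 ratio of -1.02 against -0.03 for all genes. With limits of 500 to 6000 genes per cell Aldh1a3 (-0.999) and Cyp26b1 (-0.85) were no longer past 2-fold in tendon-like cells, which left 2. SSPC-1-like cells had 2 of 8 lower (Crabp1 and Cyp26a1; 4.81%) and 1 higher (Cyp1b1; 2.49%), with a median of -0.77 against -0.05. SSPC-2-like cells had 3 of 7 higher (Crabp2, Cyp1b1 and Cyp26b1; 3.28%) and 2 lower (Aldh1a1, from 24 and 3 UMIs, and Aldh1a3; 3.07%), with a median of -0.06 against 0.04. In Pi16 fibroblast-like cells Crabp2 alone of 8 was past 2-fold (2.00% of genes higher, 2.76% lower). Gdf10 fibroblast-like cells had Crabp2 higher (2.04%) and Cyp26b1 lower (2.75%) of 7. Preosteoblast-like cells had Rbp4 higher (3.52%) and Aldh1a3 lower (7.32%) of 3. Cyp26b1 was lower in mural-like cells, as 1 of 3 genes (2.30%), and in endothelial-like cells, as the 1 gene compared (4.17%). C1q macrophage-like cells had both genes compared higher (2.88%, with 3.27% of genes lower): Cyp1b1 at 3.59 and 11.3 and Aldh1a2 at 2.99 and 7.84, the latter with an interval that reached 0 (1.39, -0.12 to 3.19) and a value of 0.74 with a wider gap between marker scores. Hemoglobin genes, which mark red blood cells, summed to 1.195 and 1456 CPM in C1q macrophage-like cells and to 6.50 and 239.6 in endothelial-like cells, and their part in the differences of these types was not tested. No gene passed 2-fold in lining-like cells, of 3 (8.45% of genes higher and 3.08% lower), or in other fibroblast-like cells, of 6 (3.21% and 3.53%).

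Of the 10 genes, 6 had the same highest type of the 11 in both libraries (Stra6, Crabp1, Aldh1a2, Aldh1a3, Cyp1b1 and Cyp26a1), as did 55.9% of genes. In Piezo1 fl/fl 2 of these were ties by counting error, Stra6 in Pi16 (10.1) and other (6.35) fibroblast-like cells and Cyp26a1 in SSPC-1-like (17.6) and tendon-like (14.9) cells, and so was Stra6 in control, at 16.4 and 9.12 in the same fibroblast types. The highest type was different for Rbp4 (SSPC-2-like in control and preosteoblast-like in Piezo1 fl/fl), Crabp2 (SSPC-1-like and Pi16 fibroblast-like), Aldh1a1 (tendon-like and Gdf10 fibroblast-like) and Cyp26b1 (mural-like and SSPC-1-like). In Piezo1 fl/fl, Cyp26b1 in SSPC-1-like cells at 29.8 did not differ beyond counting error from SSPC-2-like cells at 26.7. Its highest type there also changed with the processing. With mitochondrial UMIs under 10% it was mural-like, as in control, with types from clusters endothelial-like, and at equal depth preosteoblast-like. It was SSPC-2-like with a wider gap between marker scores, with the mean over cells and without the 5 richest cells. The highest type in Piezo1 fl/fl moved for other genes too. For Cyp26a1 it was preosteoblast-like at equal depth, and for Stra6 other fibroblast-like with a wider gap between marker scores. For Rbp4 it was Gdf10 fibroblast-like without the 5 richest cells.

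The other genes of the pathway were taken from a list of 48. Of the 6 receptor genes, Rarb and Rxrg had no UMI in at least 1 compared type of each library and the other 4 were found in all of them. Rarg, the retinoic acid receptor of skin and skeleton, reached 273 CPM in control SSPC-1-like cells and was 230 in those of Piezo1 fl/fl, and its lowest level among the compared types was 44.9 and 41.6 in the libraries. Rara was at most 43.8 and Rarb at most 3.999 in control. The corepressor gene Ncor1 was between 189 and 349 in control. Within types, Rxra in lining-like cells was the 1 receptor gene past 2-fold, at 29.6 and 13.9 (log2 ratio -1.09, -2.22 to 0.04). Over all non-blood cells Rarb was past it from 20 and 7 UMIs, and Rxrg from 20 and 10.

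Of the oxidation genes that supply retinal, Rdh10, the main retinol dehydrogenase of development, stood at 70.7 in control and 23.4 in Piezo1 fl/fl SSPC-1-like cells (log2 ratio -1.60, -1.99 to -1.22). Rdh10 was also at least 2-fold lower in lining-like cells (3.08% of genes). It went the other way, at least 2-fold higher, in other fibroblast-like (3.21%) and endothelial-like cells (3.64%). Adh7 was lower in SSPC-1-like cells, at 23.7 and 8.97, and in Pi16 (71.0 and 32.4) and Gdf10 (67.8 and 30.8) fibroblast-like cells. Dhrs3, which turns retinal back into retinol, was highest in C1q macrophage-like cells, at 460 and 459, and passed 2-fold in no compared type.

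Vessels held another set of uptake genes. Rbp7, a retinol binding protein of endothelium, was at 429 and 208 in endothelial-like cells, and the lipoprotein receptor gene Scarb1 at 340 and 214. Lpl, the lipase that frees fatty acids and retinyl esters from lipoproteins, was at 2371 and 1323 there. In Gdf10 fibroblast-like cells Lpl was 1654 and 724 (-1.19, -1.27 to -1.12). Over all non-blood cells 33 of the 48 genes were compared, and 2 were at least 2-fold higher (Aldh1a7, from 7 and 21 UMIs, and Cyp2s1, at 1.60 and 3.31 CPM), where 2.04% of all genes were, and 5 lower (Rbp7, Ces1d, Lpl, Rarb and Rxrg), where 4.64% were, with a median log2 ratio of 0.01.

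**Figure D5:**
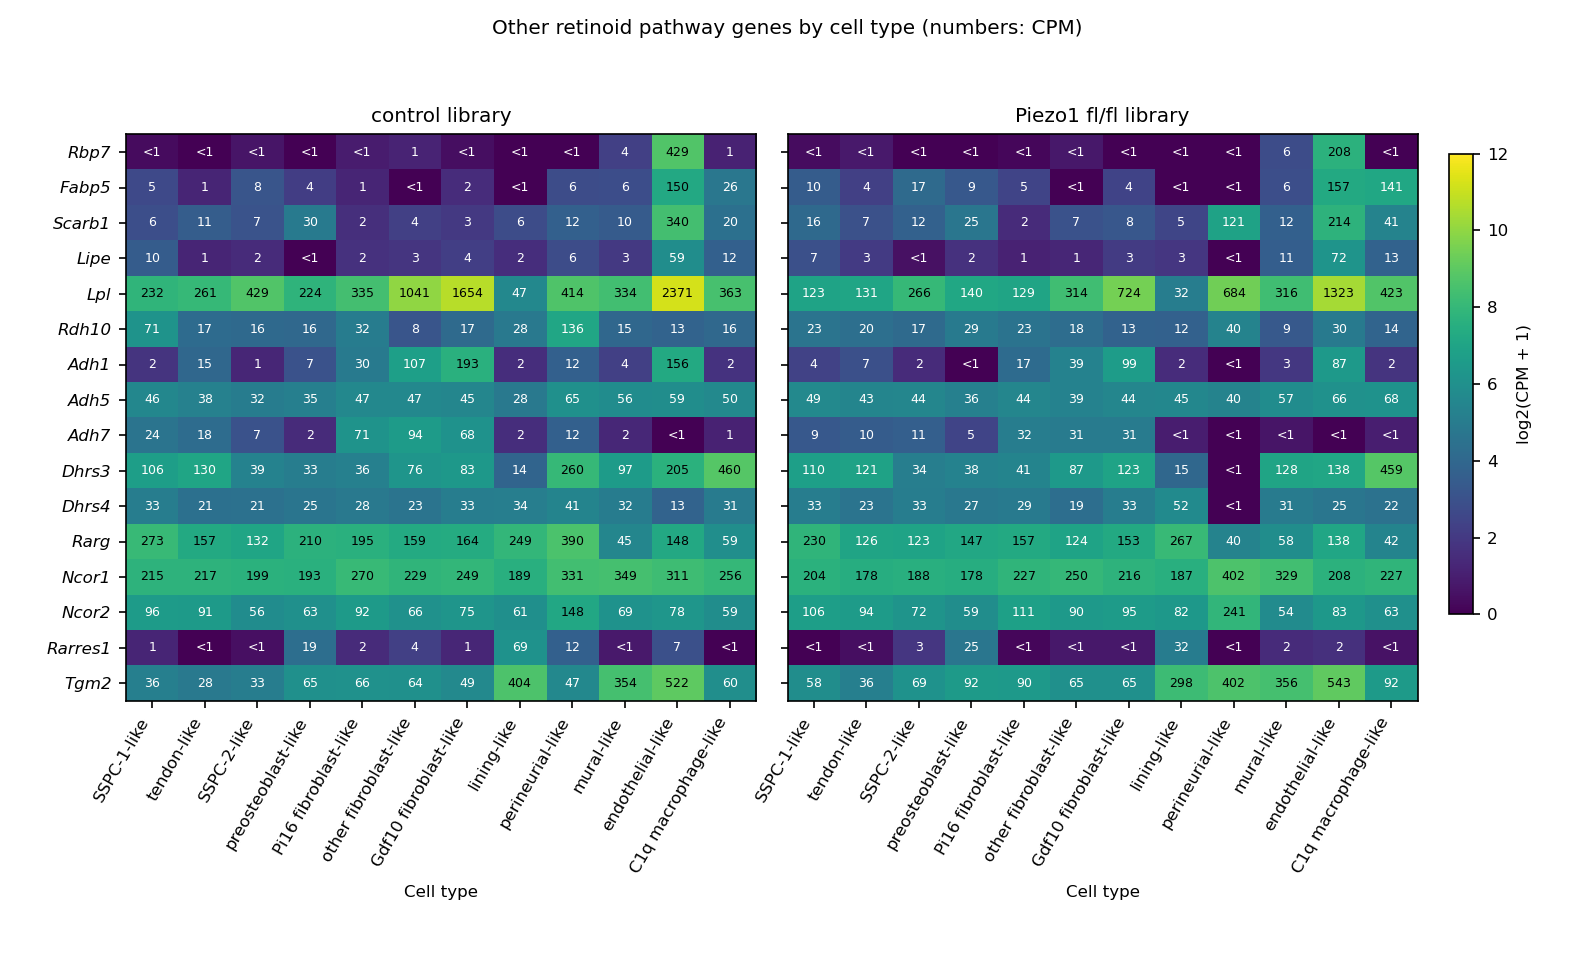
Level of other retinoid pathway genes that reached 50 CPM in at least 1 compared type (rows), by cell type (columns), in the control and the Piezo1 fl/fl library; numbers are CPM and colours log2(CPM + 1). Rarg and Ncor1 are present in every type, and Lpl is highest in endothelial-like cells (2371 in control, 1323 in Piezo1 fl/fl).

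Genes with a pattern most like a member's over the 11 control types, by Pearson correlation of log2(CPM + 1), were Crtac1 (r = 0.96), Cilp2 (0.95) and Gm29157 (0.95) for Cyp26a1, with 0.75, 0.92 and 0.76 in Piezo1 fl/fl. For Cyp1b1 they were Kctd11, Scara3 and Lrrc49 (0.96, 0.96 and 0.94, with 0.92, 0.95 and 0.67), and for Aldh1a2 Ms4a4d, Ces1d and Col6a6 (0.97, 0.96 and 0.95, with 0.91, 0.82 and 0.80). For Crabp2 they were Wnt9a, Capn5 and Pdpn (0.93, 0.93 and 0.92, with 0.92, 0.42 and 0.69). For Cyp26b1 they were Fbxo21, Stard7 and Smg6 (0.95, 0.94 and 0.94, with 0.48, 0.37 and 0.66). For Stra6 they were Cdc123, Pcolce2 and Dact2 (0.88, 0.87 and 0.87, with -0.02, 0.86 and 0.79). For Aldh1a3 they were Agpat4, Kdelr1 and Fam167a (0.93, 0.91 and 0.90, with 0.67, 0.53 and 0.68). Each gene was picked for its high correlation in control, and the lower values in Piezo1 fl/fl were not tested. The types of a library share its depth, and Crabp1 had too few UMIs in Piezo1 fl/fl to be placed.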

How the data were processed

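Single cells of mouse periosteum were measured in 2 libraries, control and Piezo1 fl/fl. The authors deposited, for each, whole-number UMI counts per gene and cell without normalization. Per the labels' processing notes, fastp, UMI-tools, STAR and Seurat 4.0.3 were used; the genome build, annotation and use of strand in counting are not given in the sources used here. Of 31253 gene identifiers, 31107 were found in GENCODE vM21 (GRCm38), from which positions come. Stra6, Aldh1a1 and Aldh1a2 overlap other genes there, some on the opposite strand, so reads of these cannot be told apart.

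Kept cells had between 1000 and 5000 genes and less than 25% of UMIs from mitochondria, and doublets called by Scrublet in scanpy 1.11.5 (expected rate 0.05) were removed, 46 of 5551 barcodes scored in control (0.829%) and 67 of 6784 in Piezo1 fl/fl (0.988%). Each of 14 marker panels was scored per cell as the mean of log(1 + UMIs per 10000), scaled by marker and capped at 1. A type needed a score of at least 0.15, a gap of 0.05 to the next panel and 2 markers with a UMI. Fibroblast-like and blood-like cells were divided by further panels. These thresholds were set after the cells were seen, and the members, markers and gene lists were chosen with earlier results of these data known.

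UMI counts were summed per type and library and given per 1000000 UMIs (CPM). Levels carry exact Poisson, ratios exact conditional binomial and shares Clopper-Pearson intervals at 95%. Groups at 0 were read against a floor of 3 counts. Shares at equal depth come from 2500 UMIs drawn per cell, without shallower cells (50 of 617 control and 97 of 666 Piezo1 fl/fl SSPC-1-like cells). Pairs with at least 20 UMIs in both libraries together were compared, with 2-fold as the limit, and the background is the share of all genes past it. All 10 members are named; other pathway genes are named where they reach 50 CPM in a type or where a count of calls turns on them. One gene of the pathway list is not reported here. As an alternative, types were taken from clusters made in Seurat 5.3.0 without the retinoid genes. Ratios and type calls were tried on simulated counts drawn from the summed profiles of control types. The simulated cells of a type differed only by depth and counting error, so this could not test values that rest on few cells.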

Additional observations from a re-analysis of the deposited data

Results flagged for a closer look

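Cyp26b1 differed between the libraries in opposite directions in different types, which was not tested with 1 library per genotype. The log2 ratio of Piezo1 fl/fl over control was 1.07 in SSPC-2-like cells, and -3.38 in mural-like, -1.76 in Gdf10 fibroblast-like, -1.40 in endothelial-like and -1.11 in tendon-like cells, all 5 with counting intervals that leave out 0. The value in SSPC-2-like cells is from 63 and 59 UMIs, and without the 5 richest cells in each library it was 0.95 (0.26 to 1.62). The mural-like and Gdf10 fibroblast-like values were past 2-fold under each of the 9 alternatives run, and the others were not.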

How the results depend on the processing

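No paired analysis was possible because each genotype has 1 library. The 9 alternatives for cells, types and totals were other limits on genes and mitochondrial UMIs, doublets kept, types from clusters, a wider gap between marker scores, the mean over cells, cells thinned to 2500 UMIs, totals without mitochondrial and ribosomal protein genes, and, chosen after seeing the data, leaving out the 5 cells with the most UMIs. Of 23 gene and type pairs past 2-fold, 14 stayed past it and 20 kept their direction under each of these that gave a value. Leaving out 5 cells takes a larger share of the cells with a UMI from the library with fewer of them, which can enlarge a ratio. With types from clusters the log2 ratios of 3 of the 23 pairs reversed. Crabp2 in Gdf10 fibroblast-like cells went to -2.20, Cyp26b1 in endothelial-like cells to 0.14 and Cyp26b1 in tendon-like cells to 0.83. Among pairs under 2-fold, Stra6 and Aldh1a2 in Pi16 fibroblast-like cells also changed sign, as given above. The cause of these changes was not tested. At 1.5-fold in place of 2-fold the counts of pairs were 17 higher and 19 lower, and over non-blood cells 3 and 5 genes. With 1 UMI in each library as the only minimum, 19 pairs were at least 2-fold lower and 16 higher. The number of genes with the same highest type was between 5 and 7. Depth limits Crabp1, Cyp26a1 and Stra6 most, with 32, 127 and 145 UMIs in Piezo1 fl/fl non-blood cells. The seed set the thinning and doublet calls, and no replicate measures the spread between animals.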
